A study of Mus musculus with 8 samples.

Results

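The 10 genes of mitotic chromosome structure described here were measured in oligodendrocyte progenitor cells held at high or low glucose: Mki67, the 8 genes of the condensin complexes (Smc2, Smc4, Ncapd2, Ncapg, Ncaph, Ncapd3, Ncapg2 and Ncaph2) and Top2a. They were chosen by name from the deposited table of raw counts, in which 10 of 10 were found among 56980 gene IDs and 10 of 10 were among the 18905 genes with enough counts to be tested. The choice was made with the difference between low and high glucose in these libraries known, so that difference is described here for the 10 genes and not tested. The cells were wild-type C57BL/6 mouse progenitors from the cortex at postnatal day 6 to 8, of either sex, captured on dishes coated with an antibody to PDGFRα after lectin-coated dishes had taken out microglia and endothelial cells. Expansion took place in 25 mM glucose with PDGF-AA (10 ng/mL) plus bFGF (20 ng/mL), and during the experiment both groups had the same PDGF-AA and no bFGF. The high glucose group (HG, 4 libraries) stayed at 25 mM. In the low glucose group (LG, 4 libraries) part of the medium was exchanged daily, so that glucose came to 12.5 mM on day 1, to 5 mM a day later and to 2.5 mM from day 3 until the harvest of both groups on day 5. The protocol calls the cultures independent preparations, but libraries 1 and 2 of each group carry the same code in their descriptions. Libraries 3 and 4 carry a code each, shared between HG and LG. What the code stands for is not given in the sources used here, and it is read below as a preparation code. Pairs of HG and LG libraries with the same number are treated below as pairs, and p-values measure only the spread between these libraries.

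Condensins are ring-shaped protein machines that extrude and fold DNA into loops when a cell enters mitosis. SMC2 and SMC4 form the ATPase core of both types: condensin I adds NCAPD2, NCAPG and NCAPH and reaches the chromosomes once the nuclear envelope has broken down, and condensin II adds NCAPD3, NCAPG2 and NCAPH2 and is in the nucleus throughout the cycle. TOP2A, the mitotic isoform of DNA topoisomerase II, passes DNA strands through each other and untangles sister chromatids. Ki-67, the product of Mki67, coats the surface of mitotic chromosomes and keeps them apart, and it is the standard marker of cycling cells. Oligodendrocyte progenitors divide in response to PDGF and leave the cell cycle as they differentiate.

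Many mitotic genes are repressed outside G2 and mitosis through a short promoter element, the cell cycle genes homology region (CHR), often with CCAAT boxes upstream of it. The 150 bases before the start of 4 of the genes are shown, as examples: Mki67, Top2a, an SMC subunit gene and a condensin II gene. Each runs 5′ to 3′ on the strand of the gene, from RefSeq on GRCm38.p6: Mki67 at chr7:135716380-135716529 (minus), Smc2 at chr4:52439071-52439220 (plus), Top2a at chr11:99024190-99024339 (minus) and Ncaph2 at chr15:89355569-89355718 (plus). Capitals mark matches on either strand to the motifs searched, which were TTTGAA for the CHR, its variant TTCGAA, the CCAAT box, and for E2F sites TTCCCGC or alternatively TTTGGCGC.
Mki67: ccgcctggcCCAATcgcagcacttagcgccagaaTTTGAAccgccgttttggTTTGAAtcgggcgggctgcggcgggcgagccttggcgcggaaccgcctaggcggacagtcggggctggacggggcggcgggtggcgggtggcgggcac
Smc2: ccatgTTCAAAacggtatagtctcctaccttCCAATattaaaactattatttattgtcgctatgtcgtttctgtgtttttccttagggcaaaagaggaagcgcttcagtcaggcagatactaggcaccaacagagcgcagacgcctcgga
Top2a: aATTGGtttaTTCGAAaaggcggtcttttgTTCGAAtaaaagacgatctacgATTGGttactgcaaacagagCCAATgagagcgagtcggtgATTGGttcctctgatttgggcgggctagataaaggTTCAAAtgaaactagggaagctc
Ncaph2: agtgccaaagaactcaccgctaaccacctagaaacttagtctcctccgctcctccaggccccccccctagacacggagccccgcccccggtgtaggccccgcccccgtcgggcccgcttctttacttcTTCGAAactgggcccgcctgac
Mki67 held TTTGAA at positions -116 and -98 from its start, and Ncaph2 held TTCGAA at -22 and no CCAAT. Top2a held TTCGAA at -140 and -120 with 6 CCAAT boxes in its whole window. It also held TTTGAA at -179 and, on the opposite strand, at -23. In windows from 250 bases before to 50 bases after the start, found for 9 of the 10 genes, TTTGAA was present in 6 of 9 against 17.9% of 32851 RefSeq windows. CCAAT was present in 5 of 9 against 37.4% of windows, TTCGAA in 2 of 9 against 1.56%, TTCCCGC in 2 of 9 against 4.60%, and TTTGGCGC in 1 of 9 against 0.514%. Ncapd2, which was not lower in every pair, held TTTGAA at -123 and 3 CCAAT boxes, while Ncaph and Ncapd3, which were, held none of these motifs. These are matches of letters and were not tested.

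Total counts per library ran from 50864130 to 65733928, and the 10 genes had between 1451 counts (lowest Ncapg library) and 48964 counts (highest Mki67 library), and replicates of a group differed by more than counting error. The totals exceed the read depth the labels name, and whether both mates of a read pair were counted is not given in the sources used here. The progenitor label was borne out: all 7 progenitor markers were tested, and their summed level was 5251 to 7908 CPM (counts scaled to the library total) in HG and 5897 to 7743 CPM in LG. Of 8 microglial markers 7 were under 1 CPM with Cx3cr1 at 0, and of 6 endothelial markers 5 were, with Cldn5 and Cdh5 at 0. Summed levels of the 8 astrocyte markers were 760 to 1824 CPM in HG and 683 to 1882 CPM in LG, of the 8 neuronal markers 1287 to 1480 CPM and 1243 to 1328 CPM, and of the 9 markers of later oligodendrocytes 668 to 958 CPM and 740 to 1128 CPM. Single astrocyte markers varied more between the 8 libraries than their sum in some cases. Aqp4 ran from 2.79 to 117 CPM, Gfap from 2.21 to 80.2, Gja1 from 2.35 to 103 and Aldh1l1 from 8.98 to 99.5. Slc1a2 ran from 40.1 to 173 CPM, Slc1a3 from 205 to 677, Aldoc from 200 to 368 and Sox9 from 216 to 313. The neuronal sum was carried by Map2 (mean 874 CPM), Gap43 (198 CPM) and Dcx (191 CPM). Tubb3, Syt1, Snap25, Rbfox3 and Stmn2 averaged 33.9, 16.2, 7.36, 1.92 and 0.104 CPM. The highest marker of later oligodendrocytes was Bcas1, at a mean of 584 CPM.

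Mki67 (ENSMUSG00000031004, GRCm38 chromosome 7, 135689784 to 135716361) was lower in LG in 4 of 4 pairs. Its level, in CPM normalised with edgeR's TMM factors, was 901, 441, 379 and 334 CPM in HG libraries 1 to 4 and 421, 285, 254 and 191 CPM in LG libraries 1 to 4. HG library 1 stood high, and the ranges overlapped because LG library 1 lay above 2 of the HG libraries. The difference within pairs, LG minus HG on the log2 scale, was -1.10, -0.63, -0.58 and -0.80, a mean of -0.78 ± 0.23 (SD, n = 4 pairs), which left the LG mean at 56.0% of the HG mean. The fitted log2 fold change without a block was -0.84, and -0.41 without HG library 1. In bulk RNA fewer cycling cells and less of this RNA in each cell cannot be told apart, for this gene and for those below.

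**Figure D1:**
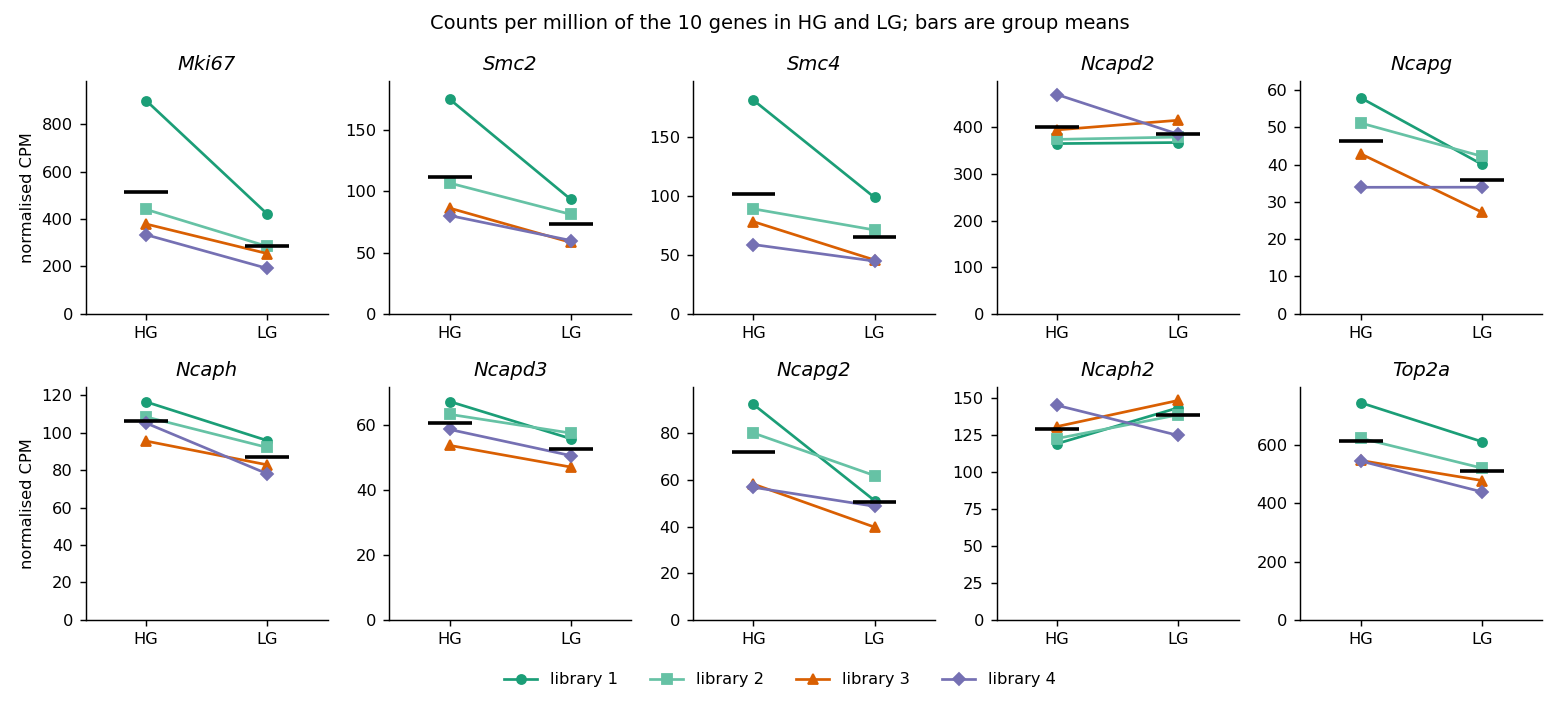
Normalised CPM (y axis, from 0, a scale of its own for each gene) of the 10 genes in HG and LG (x axis), with lines joining libraries of the same number and black bars for group means (n = 4). Mki67, Smc2 and Smc4 are highest in HG library 1 and lower in LG in every pair, while Ncapd2 and Ncaph2 stay near their HG level.

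The SMC core subunits had a pattern like that of Mki67. Smc2 (chromosome 4, 52439243 to 52488260) measured 175, 107, 86.4 and 80.3 CPM in HG libraries and 93.4, 81.3, 58.3 and 59.9 CPM in those of LG. Smc4 (chromosome 3, 69004738 to 69034623) measured 181, 89.0, 78.1 and 58.7 CPM in HG libraries and 98.7, 71.0, 45.6 and 44.6 CPM in LG. For both genes the LG library was below its HG partner in 4 of 4 pairs, HG library 1 was the highest of the 8, and the group ranges overlapped. The pair differences averaged -0.57 ± 0.24 for Smc2 and -0.59 ± 0.27 for Smc4 (log2, SD, n = 4 pairs). Fitted without a block they were -0.62 and -0.65, and without HG library 1 they were -0.31 and -0.21. The proportion of the SMC partners did not part the groups: per kilobase of merged exons, log2 of Smc2 over Smc4 was 0.13 ± 0.21 in HG and 0.15 ± 0.22 in LG (SD, n = 4). The Smc4 gene also hosts Mir15b and Mir16-2 in its introns, and both are listed at 0 counts in the 8 libraries of this mRNA preparation.

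The 3 condensin I subunits differed among themselves. Ncapd2 (chromosome 6, 125168007 to 125191701), which encodes a HEAT-repeat subunit, measured 365, 374, 395 and 471 CPM in HG libraries and 368, 379, 415 and 385 CPM in LG. It was slightly higher in LG in pairs 1 to 3 and lower in pair 4, with a mean difference of -0.05 ± 0.16 (log2, SD, n = 4 pairs). Its fitted log2 fold change changed sign, from -0.05 to 0.03, when HG library 4 was left out. Ncapg (chromosome 5, 45669919 to 45700546), the other HEAT-repeat subunit, measured 57.9, 51.1, 42.9 and 33.9 CPM in HG libraries and 40.1, 42.2, 27.2 and 33.9 CPM in LG. It was lower in LG in pairs 1 to 3, by -0.53, -0.28 and -0.65, and level in pair 4 at 0.0013. Ncaph (chromosome 2, 127103809 to 127133954), the kleisin that closes the ring, measured 117, 108, 95.6 and 105 CPM in HG libraries and 95.8, 92.2, 82.9 and 78.1 CPM in LG. It was lower in 4 of 4 pairs with a narrow spread (-0.29 ± 0.099, log2, SD), and the group ranges met only at HG library 3 and LG library 1. Ncapg shares 944 bases of exon (13.4% of its merged exons) with Lcorl on the opposite strand, which had 2019 to 3629 counts and a log2 fold change of -0.23. Without a stated strand setting, reads in that stretch cannot be assigned to either gene.

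The condensin II subunits were likewise split. Ncapg2 (chromosome 12, 116405402 to 116463731) measured 92.5, 80.2, 58.3 and 56.9 CPM in HG libraries and 51.2, 61.9, 39.8 and 48.7 CPM in LG. It was lower in LG in 4 of 4 pairs, but by unequal amounts, from -0.85 in pair 1 to -0.22 in pair 4 (mean -0.50 ± 0.27, log2, SD). Ncapd3 (chromosome 9, 27030175 to 27095315) measured 67.1, 63.2, 53.6 and 58.6 CPM in HG libraries and 55.7, 57.4, 47.0 and 50.5 CPM in LG. Its difference was small and even, -0.20 ± 0.054 (log2, SD, n = 4 pairs), and lower in 4 of 4. Ncaph2 (chromosome 15, 89355719 to 89372826), the kleisin of condensin II, measured 119, 123, 131 and 145 CPM in HG libraries and 144, 139, 149 and 125 CPM in LG. It was higher in LG in pairs 1 to 3, by 0.27, 0.18 and 0.18, and lower in pair 4 at -0.22, so its mean of 0.10 ± 0.22 (log2, SD) lay within the spread of the pairs. Ncaph2 overlaps Sco2 and Tymp on the opposite strand over 829 and 535 bases of exon (19.7% and 12.7% of its merged exons). Those genes had at most 1 and 5 counts in a library. As for Ncapg, reads in these stretches cannot be assigned without a stated strand setting, and reads of Ncaph2 may be missing there.

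**Figure D2:**
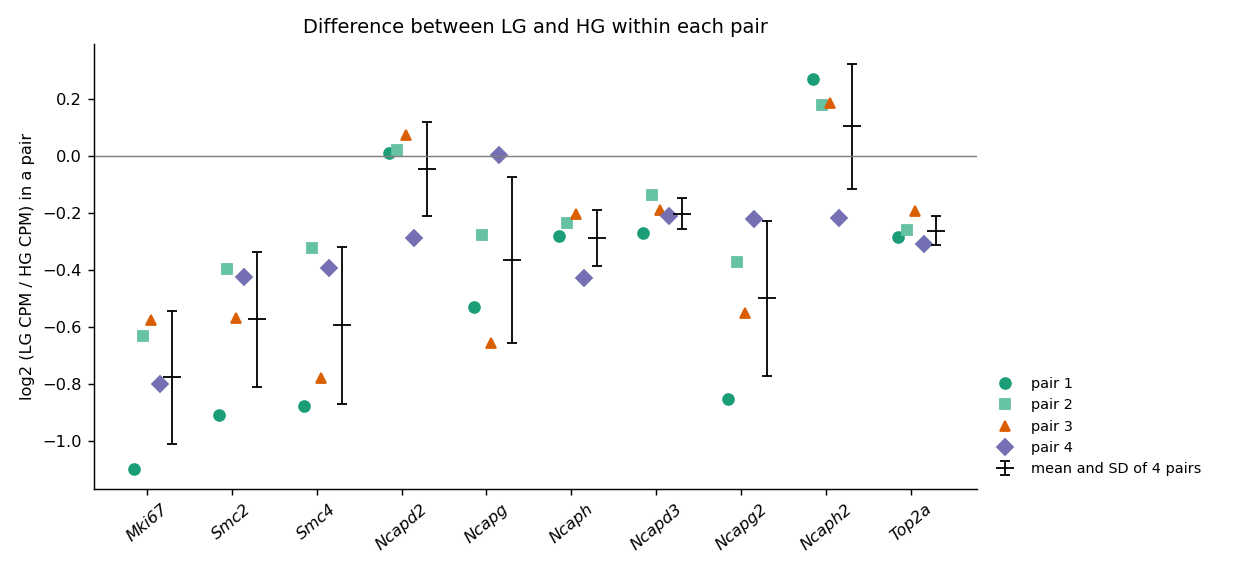
Difference between LG and HG within each pair of libraries (y axis, log2 of the CPM ratio) for each gene (x axis), with coloured points for the 4 pairs and black bars for their mean ± SD. Top2a, Ncaph and Ncapd3 have small differences of similar size in the 4 pairs, Mki67, Smc2, Smc4 and Ncapg2 have larger and more scattered ones, and pair 4 sits apart for Ncapd2, Ncapg and Ncaph2.

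Top2a (chromosome 11, 98992943 to 99024189) was abundant and differed evenly between the groups. It measured 745, 623, 547 and 545 CPM in HG libraries and 611, 521, 478 and 439 CPM in LG, and each LG library lay below its HG partner. The pair differences were -0.29, -0.26, -0.19 and -0.31, a mean of -0.26 ± 0.050 (log2, SD, n = 4 pairs). The ranges of the groups overlapped, since LG library 1 lay above 2 HG libraries. From the highest to the lowest of the 8 libraries Top2a spanned 0.76 log2 units and Mki67 2.23. The fitted log2 fold change of Top2a was -0.26, and -0.15 without HG library 1.

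Over the 10 genes, 9 had a negative log2 fold change in LG without a block, where 48.6% of all 18905 tested genes did, with a median of -0.33 against 0.0051 over all genes. Of the 10, 7 were lower in LG in 4 of 4 pairs, against 11.0% of all genes, and 0 of 10 had HG and LG ranges that did not overlap, where 1.82% of all genes had every LG library below every HG library. Without a block, the quasi-likelihood test of edgeR called no gene (0.0% of those tested, smallest Benjamini-Hochberg adjusted p = 0.9999, 745 genes at an unadjusted p under 0.05), while DESeq2 called 4 genes and limma-voom 0. Blocking on the replicate number let 79 genes pass in all (0.418% of those tested) and 58 as lower in LG (0.307%), and Mki67, Smc2, Smc4 and Ncapg2 were 4 of the 58. Because this contrast was known when the 10 genes were chosen, nothing is read from these shares. Of all genes called with the replicate block, the 10 made up 1 of 6 without pair 1 and 0 of 0 without pair 2. They made up 3 of 39 without pair 3 and 5 of 148 without pair 4, and 0 of 1 when the block was the preparation code. On counts summed per preparation, with a preparation block, they were 3 of the 17 genes called. By DESeq2 with the replicate block they were 7 of 474, and that fit gave no adjusted p for 6964 genes.

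Transcript composition differed among the 10 genes. Ncapd2 and Ncaph2, which had the smallest differences, have the highest GC content of the 10, at 54.0% and 55.7% of the longest transcript, and the other 8 lie below the median of 49.3% over all tested genes, down to 34.8% for Ncapg. Among those 8 the fold changes were not in the order of GC content. Without a block, Mki67 at 46.6% GC was at -0.84, Ncapd3 at 46.8% was at -0.20 and Ncapg was at -0.37. The part of composition in the differences was not tested. Over all genes, the median log2 fold change without a block went from -0.13 between 30 and 40% GC to 0.083 between 55 and 60% GC. In HG library 1 the 4854 genes under 45% GC had a median of 0.17 log2 above their mean over the libraries, and the 3780 genes over 55% GC a median of -0.20. With offsets for GC content and transcript length and the replicate block, Mki67 was at -0.67, Smc2 at -0.44, Smc4 at -0.48, Ncapg2 at -0.44, Ncaph at -0.28, Ncapg at -0.20, Top2a at -0.18, Ncapd3 at -0.16, Ncapd2 at -0.09 and Ncaph2 at 0.041. Of the 10 genes 9 were nearer 0 than in the fit without offsets and block, and Ncapd2 was farther from it. In that fit 152 genes passed in all (0.804%), 101 of them as lower (0.534%), and 5 of the 10 were among these: Mki67, Smc2, Smc4, Ncaph and Ncapg2. Nothing is read from this share either, because the contrast was known when the 10 genes were chosen.

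**Figure D3:**
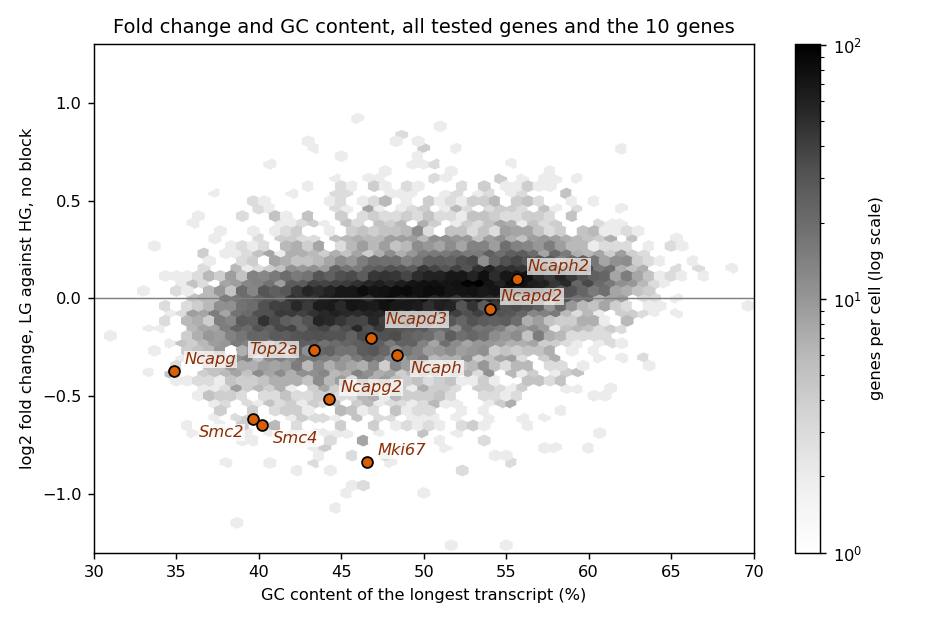
Log2 fold change of LG against HG without a block (y axis) against the GC content of the longest transcript (x axis, percent), with grey cells for the density of all tested genes on a log scale and orange points for the 10 genes. Genes outside the axis limits are not drawn. The cloud rises with GC content, and Mki67, Smc2, Smc4 and Ncapg2 lie in its lower part or below it, while Ncaph2 and Ncapd2 lie at high GC near 0.

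Levels of different genes were compared per kilobase of merged exons. Ncapd2 and Top2a were highest, at 62.9 ± 5.57 and 62.5 ± 10.6 CPM per kilobase (SD, n = 8 libraries), and neither was consistently above the other, since Ncapd2 was higher in 5 of 8 libraries. Mki67 followed at 39.8 ± 21.8 and Ncaph2 at 32.0 ± 2.69, with Mki67 above Ncaph2 in 4 of 8 libraries. Ncaph was at 22.5 ± 2.99, Smc2 at 16.9 ± 6.77 and Smc4 at 16.0 ± 8.45. Ncapd3 (7.18 ± 0.827), Ncapg2 (6.16 ± 1.73) and Ncapg (5.82 ± 1.40) formed the lowest group, and Smc4 was above Ncapd3 in 8 of 8 libraries. Neighbours within that lowest group changed places in 2 of 8 libraries. By coding length Top2a came first and Ncaph2 next after Ncapd2, and Ncapd3 came last, as it did by longest transcript, so the order depends on which exons are counted as the gene. Per length, Smc2 and Smc4 lay below Ncapd2 in each library.

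**Figure D4:**
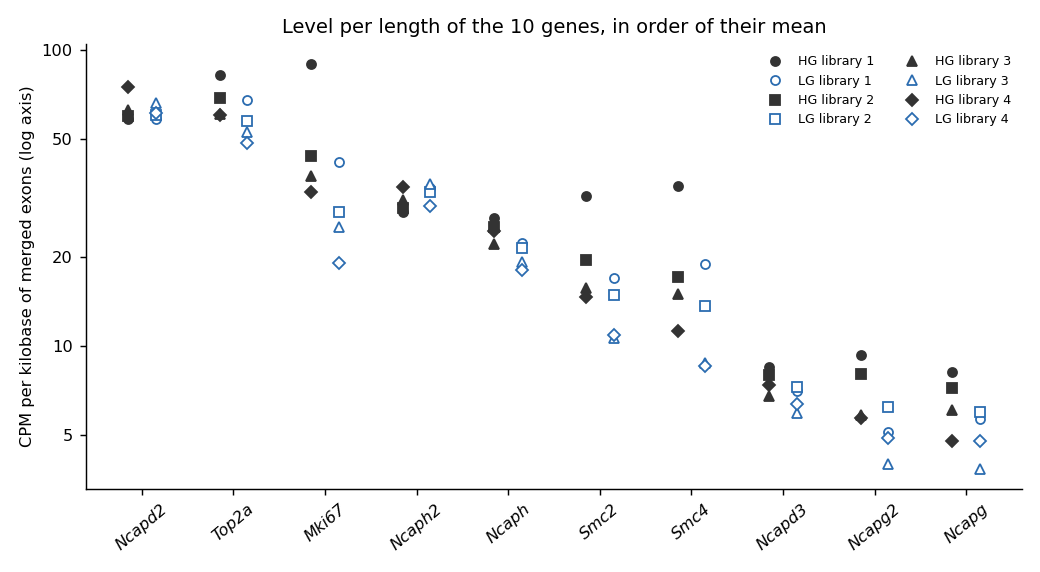
CPM per kilobase of merged exons (y axis, log scale) for the 10 genes in order of their mean (x axis), with filled symbols for HG and open symbols for LG and a symbol shape for each library number. Ncapd2 and Ncaph2 keep a narrow range over the 8 libraries, and Mki67, Smc2 and Smc4 a wide one.

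The share of condensin II among the non-SMC subunits was slightly higher in LG. The summed level of Ncapd3, Ncapg2 and Ncaph2 was 45.8 ± 1.63 CPM per kilobase in HG and 44.8 ± 2.59 in LG, and that of Ncapd2, Ncapg and Ncaph was 95.3 ± 6.07 and 87.1 ± 2.10 (SD, n = 4). Pair 4 stood apart from the others in both sums, with the highest HG and the lowest LG level. Condensin II made up 32.5 ± 0.766% of the sum in HG and 34.0 ± 0.999% in LG. Every pair, 4 of 4, had the higher share in LG, by 1.20 to 1.83 percentage points, with overlapping group ranges of 31.4 to 33.1% and 32.7 to 34.9%. Since the sums are carried by Ncapd2 and Ncaph2, the share mostly follows those genes. It was higher in LG in 4 of 4 pairs by coding length too, at 39.7% and 41.5%. This is a description, as the contrast was known when the genes were chosen.

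**Figure D5:**
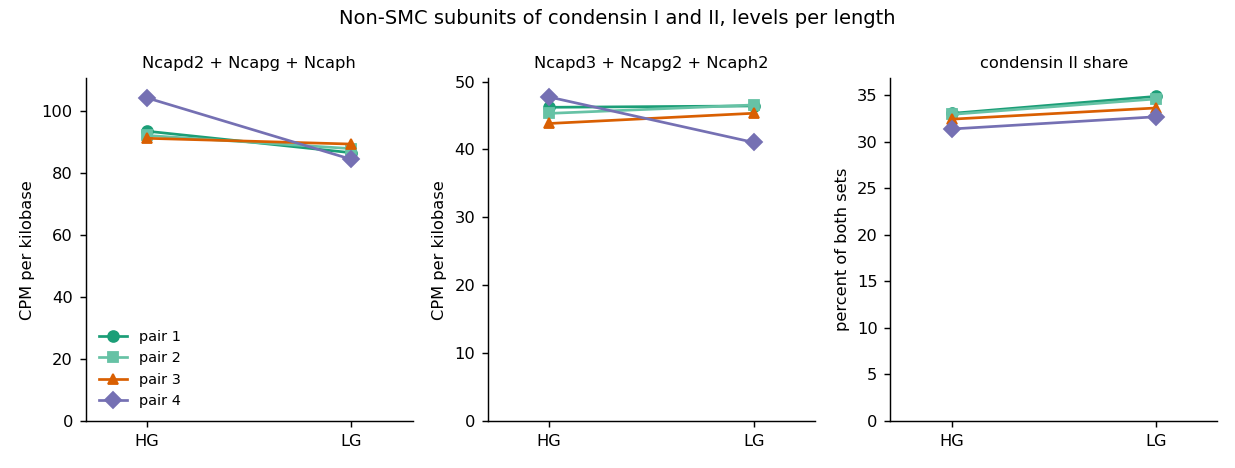
Summed level of the condensin I subunits Ncapd2, Ncapg and Ncaph and of the condensin II subunits Ncapd3, Ncapg2 and Ncaph2 (y axes, CPM per kilobase from 0) and the share of condensin II in percent, in HG and LG (x axis), with lines joining pairs. The share is higher in LG in each pair by less than 2 percentage points.

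The preparation codes gave a contrast other than the one between LG and HG. Read as preparations, the codes of libraries 3 and 4 each stand for a single preparation, whose HG and LG libraries the test counts as separate. Its p-values therefore compare these libraries and are too small for preparations in general. With the group as a covariate, 2585 genes differed between the 3 codes by edgeR's quasi-likelihood test (13.7% of those tested), and 2 of the 10 genes were among them, a share near that over all genes. With the GC and length offsets the test called 20.3% of all genes, and again Ncapg and Ncapg2 among the 10. Ncapg2 was at 71.4 CPM on average in the code of libraries 1 and 2 (51.2 to 92.5, n = 4), at 49.0 CPM in that of library 3 (39.8 to 58.3, n = 2) and at 52.8 CPM in that of library 4 (48.7 to 56.9, n = 2). Relative to the first code it was -0.54 and -0.40 on the log2 scale in the others (edgeR adjusted p = 0.0159). Ncapg was at 47.8, 35.0 and 33.9 CPM in the same order, or -0.46 and -0.47 on the log2 scale (edgeR adjusted p = 0.0260). Ncapg2 did not pass without HG library 3 (edgeR adjusted p = 0.0639) or LG library 3 (0.0756), and its adjusted p ran from 2.8e-07 to 0.0756 over the alternatives. Ncapg did not pass without HG library 1 (edgeR adjusted p = 0.0875), LG library 1 (0.0521), LG library 2 (0.0645) or LG library 3 (0.0632), with a range from 4.7e-06 to 0.0875. The other members did not pass: by edgeR, Mki67 had adjusted p = 0.131 at -0.65 and -0.95, Smc2 0.0635 at -0.65 and -0.68, Smc4 0.0699 at -0.84 and -1.06, and Top2a 0.0587 at -0.28 and -0.35. Over the 13 settings run, the main fit included, Ncapg2 passed in 11, Ncapg in 9, Smc2 in 5, Top2a in 4, Smc4 in 3 and Mki67 in 2. Ncapd2, Ncaph, Ncapd3 and Ncaph2 passed in 0. The number of all genes that passed also changed with the setting, so nothing is read from these counts. For 8 of the 10, all but Ncapd2 and Ncaph2, libraries 1 and 2 lay above libraries 3 and 4 in HG and again in LG, an order found in 15.1% of all tested genes. Summed astrocyte markers were also highest in the first code, at 1742 to 1882 CPM in the first code, 804 to 820 CPM in that of library 3 and 683 to 760 CPM in that of library 4. Summed progenitor markers went the other way, at 5251 to 6226 CPM, 7331 to 7908 CPM and 7557 to 7743 CPM in the same order, and those of later oligodendrocytes were at 679 to 790 CPM, 668 to 946 CPM and 958 to 1128 CPM. The part of these markers in the differences was not tested.

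The genes that work with condensin, Ki-67 and topoisomerase II were read from 7 lists of 76 tested genes, drawn up with earlier results of these data known. Without a block 66 of the 76 had negative log2 fold changes, against 48.6% of all genes, and 0 passed by edgeR, 0 by DESeq2 and 0 by limma-voom, with 14 at an unadjusted p under 0.05 by edgeR. With the replicate block 5 of the 76 fell and 0 rose, where 0.307% of all tested genes passed as lower and 0.111% as higher. In the cohesin list, whose rings hold sister chromatids together, 14 of 16 were negative (median -0.23) and 0 passed with the block. Smc3 was at -0.45 with the block, Nipbl, the cohesin loader, at -0.43 and Esco2, a cohesin acetyltransferase of S phase, at -0.45. Of the SMC5/6 complex, which acts in DNA repair, 5 of 8 were negative (median -0.11). Its core subunit gene Smc6 had 60.9 ± 22.8 CPM in HG libraries and 41.7 ± 11.0 CPM in those of LG (SD, n = 4), and it fell in the blocked fit, at a log2 fold change of -0.51 (SE 0.080, edgeR adjusted p = 0.0346). Smc5 was at -0.36 and Slf1 at -0.45, and neither passed.

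Of the topoisomerase list 5 of 6 were negative (median -0.29). Top2b, the isoform of topoisomerase II that non-dividing cells also use, had 352 ± 56.3 CPM in HG libraries and 285 ± 32.9 CPM in those of LG, with a log2 fold change of -0.29 with the block, near that of Top2a, and did not pass. Topbp1, a replication checkpoint protein named for its binding to topoisomerase II and not itself a topoisomerase, fell by 0.30 on the log2 scale with the block (SE 0.054, edgeR adjusted p = 0.0476). Top1mt, the mitochondrial enzyme, was at -0.28. All 10 condensin regulators and chromosomal partners were negative (median -0.13) and 0 passed with the block. Kif4, a chromosome kinesin that works with condensin I, was at -0.26 and Incenp, of the chromosomal passenger complex, at -0.18.

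Of the Ki-67 partners and chromosome periphery genes 6 of 10 were negative (median -0.07). Kif15, a kinesin that binds Ki-67, fell in the blocked fit, at -0.39 (SE 0.064, edgeR adjusted p = 0.0381), while Cdca2, which targets a phosphatase to chromatin at mitotic exit, was at -0.17 and Ncl, nucleolin, at -0.34, and neither passed. All 17 proliferation markers outside the 10 genes were negative (median -0.19), and 2 passed with the block. These were Cenpe, a kinetochore kinesin, at -0.79 (SE 0.12, edgeR adjusted p = 0.0383), and Hmmr, a spindle protein, at -0.38 (SE 0.062, edgeR adjusted p = 0.0364). Cenpf was at -0.80 and did not pass. All 9 chromatin looping and linker genes were negative (median -0.18) and 0 passed, with Hmgb2 at -0.36. The linker histone genes Hist1h1a and Hist1h1e, whose mRNAs largely lack the poly(A) tail, had group means of at most 2.17 CPM. Of the 5 genes that fell, Smc6, Topbp1, Kif15 and Hmmr did not pass without pair 1, 2 or 3, and Cenpe did not pass without pair 2, 3 or 4 (highest edgeR adjusted p = 0.131, 0.299, 0.229, 0.192 and 0.0894 in that order). On counts summed per preparation Smc6, Topbp1, Kif15 and Hmmr did not pass either (edgeR adjusted p = 0.0671, 0.121, 0.0955 and 0.0633), while Cenpe and Cenpf did (0.0169 each), and none of these 6 genes passed when the block was the preparation code (edgeR adjusted p from 0.158 for Topbp1 to 0.619 for Hmmr). With the offsets as well, 8 of the 76 passed as lower (0.534% of all tested genes did), among them Smc6, Topbp1, Kif15, Cenpe, Cenpf, Smc1a and Smc3, and Hmmr did not.

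Likeness of pattern was measured as the root mean square difference between the log2 levels of a pair of genes over the 8 libraries, each centred on its own mean. The measure is not scaled by the spread of a gene, so genes that varied little come out close. Ncapd2 and Ncaph2 spanned 0.37 and 0.32 log2 units over the 8 libraries, and Mki67 2.23. Among the 10 genes the closest were Ncaph and Ncapd3 at 0.071 log2 units, then Ncaph and Top2a at 0.093 and Ncapd2 and Ncaph2 at 0.11. By this measure, subunits of different condensins were closer than some partners within a complex. Smc4 and Ncapd2 were farthest apart at 0.69. Among the 18895 other tested genes, Cenpe was closest to Mki67 at 0.092. It was followed by Casp8ap2 at 0.17, Ccdc88a at 0.18, Cep290, Gm15719 (a processed pseudogene), Kif20b, Slfn9, Knl1, Cntln and Tpr, up to 0.21. Closest to Top2a were Ckap5, a microtubule polymerase, at 0.040, Nuf2, a kinetochore subunit, at 0.046, Nop14, Prim1, a DNA primase subunit, and Ercc5. Closest to the mean of the 8 condensin genes were the mitotic kinesin genes Kif23 at 0.032 and Kif11 at 0.035, then Pclaf, Dbf4 and Nfib. The 10 genes near Mki67 had a GC content from 37.7% upward, below the median of 49.3% over all tested genes in 10 of 10, and a median longest transcript of 7140 bases against 2903, and the part of composition in their likeness was not tested. With values centred within each pair, so that only the difference between HG and LG remains, 2 of the 10 were again among the closest 10 to Mki67, 0 of 5 for Top2a and 1 of 5 for the condensin mean.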

How the data were processed

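RNA was measured in 8 libraries, 4 HG and 4 LG. The authors deposited raw counts per gene with no normalisation. The submitters' processing notes list, without role or order, the genome mm10 and the tools STAR, featureCounts, DESeq2 and CASAVA 1.8.2. Annotation release, strand setting and treatment of multi-mapping reads: not given in the sources used here. Symbols, lengths and GC content came from GENCODE M21 (GRCm38), which matched 52125 of 56980 IDs, and GC content was known for 97.5% of tested genes.

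Counts were analysed with R 4.3.3 and edgeR 4.0.16 (filterByExpr, TMM, robust quasi-likelihood test, Benjamini-Hochberg adjustment over 18905 genes, threshold 0.05). CPM values use the TMM factors, those of cell type markers the totals alone. An SE is the absolute log2 fold change divided by the square root of F. Library totals were 50864130 to 65733928. After subtraction of its group mean, each HG library was compared over all genes (not independent replicates) with the LG library of its number, giving r of 0.448 to 0.625, and all 8 libraries correlated best with their own number (highest r between different numbers 0.419), so the numbers were taken as pairs. Replicates of a group differed by a chi-square per degree of freedom of at least 19.0. Alternatives were DESeq2 1.42.0, limma-voom 3.58.1, offsets for GC and length from mgcv 1.9.3, other scaling, filter, blocks, sums per preparation and left-out libraries.

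The 10 genes, the lists and the tests were chosen with earlier results of these data known. Named beside the 10 genes were, from each list, those that passed with the block, filled up to 3 by the largest fold change, and the closest genes by pattern, 10 for Mki67 and 5 each for Top2a and the condensin mean; a gene that this rule names is not reported here. Genes named as lower with the offsets only, or for overlap with a member, were chosen after their values were seen.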

Additional observations from a re-analysis of the deposited data

How the results depend on the processing

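The direction of 9 of the 10 genes was the same in the 23 settings of the contrast between LG and HG that were run, and Ncapd2 changed sign at 0.034 without HG replicate 4 and 0.033 with the replicate block without replicate 4. Over those settings the log2 fold change ran from -1.08 to -0.41 for Mki67, -0.76 to -0.31 for Smc2, -0.92 to -0.21 for Smc4, -0.63 to -0.37 for Ncapg2, -0.50 to -0.19 for Ncapg, -0.34 to -0.24 for Ncaph, -0.36 to -0.15 for Top2a, -0.26 to -0.15 for Ncapd3 and 0.041 to 0.21 for Ncaph2, and from -0.0911 to 0.034 for Ncapd2. 

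The count of all genes that passed in LG against HG, 0 by edgeR without a block, was 79 with the replicate block, 152 with the block and the GC and length offsets, 4 by DESeq2 without a block, 474 by DESeq2 with it, 1 with the preparation code as the block and 17 with counts summed per preparation and a preparation block. With the replicate block and a pair left out it was 6 without replicate 1, 0 without replicate 2 (1572 genes at an unadjusted p under 0.05), 39 without replicate 3 and 148 without replicate 4, and without the block it was 0 without each library. The cause of these differences was not tested. DESeq2 gave no adjusted p for 6964 genes in its blocked fit. The count of genes that differed between preparation codes, 2585, ran from 1575 without LG replicate 3 to 2162 without HG replicate 2 with a library left out, and fits with fewer libraries hold fewer samples. The condensin II share was 39.7% in HG and 41.5% in LG by coding length, against 32.5% and 34.0% by merged exons. These are the same counts divided by other lengths: Ncaph2 has 4198 bases of merged exons and 1824 coding bases, and Ncapd2 has 6267 and 4176. A check for a library apart from its group flagged none in 22 groups of 4 libraries. It does not show that HG library 1 was like the others: the fitted log2 fold change of Mki67 without a block was -0.84, and -0.41 without that library. Each group has 4 libraries, of which 2 share a code, so the spread between preparations, as read from the codes, rests on 3 of them.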
